A study of Homo sapiens with 4 samples.

Results

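The nuclear-encoded subunits of the 5 oxidative phosphorylation complexes were followed through a knockdown of TARBP2 in a human breast cancer cell line. Members were chosen by gene symbol: NDUFA (without the assembly factors named NDUFAF), NDUFB, NDUFC, NDUFS and NDUFV genes, SDHA to SDHD, UQCR genes, COX4 to COX8 genes and ATP5 genes, without pseudogenes. This gave 88 members, 37 of complex I, 4 of complex II, 9 of complex III, 19 of complex IV and 19 of complex V. Of these, 77 were measured among 11257 measured genes, where measured means a detection p-value under 0.01 on at least 2 of the 4 arrays. All 77 were detected on all 4 arrays. Where several probes of a gene were detected, its brightest probe stands for it.

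The cells were MDA-LM2 shDicer, derived from the basal-like line MDA-MB-231 and selected for metastasis, with a hairpin against Dicer that all 4 samples share. RNA was taken 48 h after transfection with siTARBP2-1 or siTARBP2-2, described as independent siRNAs against TARBP2, or with the control transfections siControl-1 and siControl-2, which the design text calls mock. Each of the 4 arrays is 1 sample, so there were 2 arrays in each group. The labels do not say whether the cultures were separate, so the p-values here cover array-to-array spread, which may be technical. Between the 2 knockdown arrays that spread also holds any difference between the siRNAs. RNA came from whole cultures, and less transcript per cell and fewer cells with the transcript cannot be told apart.

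Oxidative phosphorylation passes electrons from NADH through complex I, and from succinate through complex II, to ubiquinone, then through complex III and cytochrome c to complex IV, which reduces oxygen. Complexes I, III and IV pump protons out of the matrix, and complex V, the ATP synthase, uses the return of those protons to make ATP. Most subunits are encoded in the nucleus, made in the cytosol and imported, and their promoters are known for sites of the factors NRF1, YY1 and the ETS protein GABP. TARBP2 is a double-stranded RNA-binding protein that partners Dicer in microRNA processing and also binds structured messenger RNAs.

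RefSeq promoter windows of GRCh38.p14, each running from 250 bases before to 50 bases after a gene start, were found for 72 of the 88 members. Windows were searched on both strands for the letters TGCGCA (an NRF1 core, which reads the same on both strands), CCGGAAG (an ETS core) and AAGATGG (a YY1 core); the ETS and YY1 letters can share AAG, but did so in 0 member windows. The first was in 25.6% of the 86 member windows and 8.24% of all 35116 windows, the ETS core in 25.6% and 10.3%, and the YY1 core in 22.1% and 5.84%. By gene, at least 1 of the 3 stood in 11 of the 14 members with a window that fell after knockdown. The same held for 28 of the 48 that did not pass the test and 0 of the 2 that rose, beside 25.2% of all 27305 genes with a window. These genes and the 35116 windows include genes that the arrays did not measure, and measured genes alone were not counted. The difference between fallen and other members was not tested. For 3 of the complexes, the window shown belongs to the fallen member with the smallest p among those holding a match, and the fourth window belongs to ATP5IF1, the risen member with the smallest p among those with a window. Capitals mark the matches, and a match describes letters only.
NDUFB8: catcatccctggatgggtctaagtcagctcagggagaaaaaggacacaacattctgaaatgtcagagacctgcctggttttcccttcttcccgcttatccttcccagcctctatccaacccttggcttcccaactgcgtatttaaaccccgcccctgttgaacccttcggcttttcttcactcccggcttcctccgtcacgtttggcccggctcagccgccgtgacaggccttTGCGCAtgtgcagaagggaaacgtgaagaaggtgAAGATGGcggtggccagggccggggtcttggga
COX5B: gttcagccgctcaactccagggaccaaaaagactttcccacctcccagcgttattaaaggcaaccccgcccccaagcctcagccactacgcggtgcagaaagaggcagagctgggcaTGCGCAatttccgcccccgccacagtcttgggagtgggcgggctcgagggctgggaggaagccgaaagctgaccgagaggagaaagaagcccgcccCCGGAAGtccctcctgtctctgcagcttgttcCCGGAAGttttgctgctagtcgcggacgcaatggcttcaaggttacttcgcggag
ATP5MC2: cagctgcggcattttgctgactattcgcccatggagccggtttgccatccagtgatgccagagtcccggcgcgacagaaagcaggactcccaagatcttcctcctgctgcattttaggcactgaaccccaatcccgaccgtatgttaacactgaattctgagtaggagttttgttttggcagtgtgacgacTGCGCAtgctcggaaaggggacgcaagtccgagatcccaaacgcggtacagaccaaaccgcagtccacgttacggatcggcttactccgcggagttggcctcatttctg
ATP5IF1: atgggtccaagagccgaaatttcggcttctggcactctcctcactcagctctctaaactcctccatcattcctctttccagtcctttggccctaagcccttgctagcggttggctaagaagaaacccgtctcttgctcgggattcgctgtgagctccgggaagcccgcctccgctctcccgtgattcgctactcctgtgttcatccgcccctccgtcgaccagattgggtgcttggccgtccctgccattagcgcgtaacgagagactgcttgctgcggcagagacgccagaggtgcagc

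The NDUFB8 window (complex I) lies at chr10:100529822-100530121 on the minus strand and holds 1 NRF1 and 1 YY1 match. The COX5B window (complex IV) lies at chr2:97645812-97646111 on the plus strand and holds 1 NRF1 and 2 ETS matches. The ATP5MC2 window (complex V), one of several starts of that gene, lies at chr12:53676281-53676580 on the minus strand and holds 1 NRF1 match. The ATP5IF1 window, at chr1:28235874-28236173 on the plus strand, holds none of the 3.

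The targeted gene was checked first. TARBP2 read 6.11 and 5.79 on the knockdown arrays and 9.27 and 9.25 on the control arrays, in normalised log2 signal (siTARBP2-1 and siControl-1 come first in each pair). It was 9.89-fold lower (log2 fold change -3.31, SE 0.11, n = 2 and 2, limma adjusted p = 2.26e-10); without background correction the log2 fold change was -2.63. DICER1 did not pass the test (log2 fold change -0.09, adjusted p = 0.442). The groups were taken from the headings of the deposited intensity table, because each column of the series matrix matched the array of the other group with the same number (Pearson r across probes 0.99974 to 0.99998) and read as labelled it puts TARBP2 higher after knockdown. Markers of the line (VIM, CD44, CAV1, EGFR, ANXA1 and SPARC) were all measured, and 5 of the 6 were higher after knockdown, beside 17.0% of all genes. Of the genes listed as low or absent in it, ERBB2 (log2 signal 9.29 to 9.63) and GATA3 (5.10 to 5.57) were measured. ESR1 and PGR were not, and no probe was joined for EPCAM. ERBB2 stood above the median level of all genes (8.83) and was lower after knockdown (log2 fold change -0.27, limma adjusted p = 0.00887). GATA3 did not pass (adjusted p = 0.162). Of 6 markers of blood, endothelial and fibroblast cells, CD14 (log2 signal 7.90 to 8.23) and PECAM1 (5.92 to 6.03) were measured, and neither passed the test.

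After TARBP2 knockdown, 16 of the 77 measured subunits fell and 3 rose. The falls were in complex I (6 of 35), complex II (1 of 4), complex IV (5 of 12) and complex V (4 of 17), and no measured subunit of complex III (0 of 9) passed. The called changes were small, from 1.09-fold for ATP5F1A to 1.29-fold for ATP5F1D. Of the 77, called or not, 6 changed by more than 1.2-fold, among them NDUFC2 and NDUFV3, which did not pass the test. The median absolute log2 fold change was 0.08 over the members and 0.15 over all genes. The count of 19, or 24.7% of the measured members, stands beside 34.1% of all genes, and limma's moderated test with Benjamini-Hochberg adjustment over all 11257 genes made the calls. The members had a median log2 signal of 11.86, beside 8.83 over all genes. The spread that limma shares across genes follows signal level, so these shares compare genes of unlike level. By direction, the 16 falls (of 77) stand beside 17.1% of all genes called lower, and the 3 rises beside 17.0% called higher. The median log2 fold change was -0.05 over the members and -0.01 over all genes. A value below 0 was found for 50 of the 77 members (64.9%), beside 51.5% of all genes. The plot of fold changes by complex shows the members side by side.

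**Figure D1:**
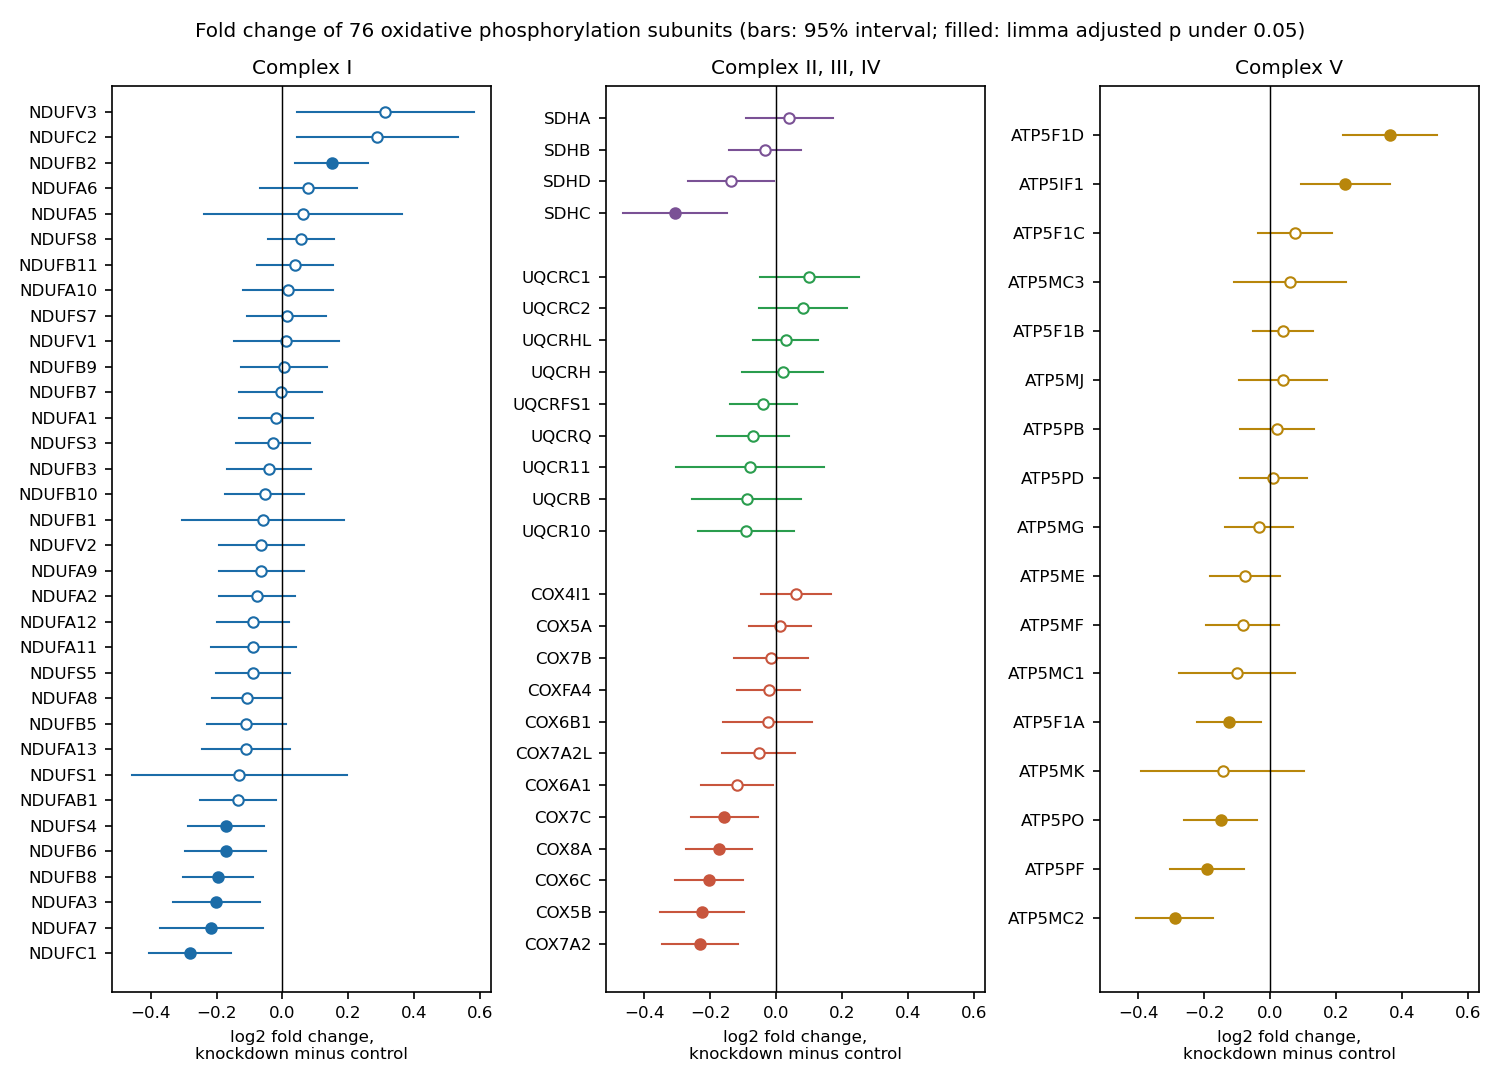
Log2 fold change (knockdown minus control) of 76 of the 77 measured subunits, grouped by complex, with 95% intervals as bars; filled points passed limma's test at an adjusted p under 0.05. The values run from -0.31 for SDHC to 0.36 for ATP5F1D, all filled points of complexes II and IV lie below 0, and complex III has no filled point.

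The groups did not overlap for 42 of the members, 33 of them lower and 9 higher in both knockdown arrays, beside 67.0% of all genes whose groups did not overlap. Of all 11257 genes, 3882 were lower and 3664 higher in both knockdown arrays. With 2 arrays against 2 an exact permutation test of 1 gene cannot go below p = 0.333, so the calls rest on the spread that limma shares across genes. With that sharing made constant over signal level in place of following it, 4 members passed (ATP5F1D, NDUFC2, ATP5MC2 and NDUFC1), beside 24.5% of all genes. Scaling each array on its median in place of quantile normalisation left 7 members lower and 5 higher, beside 30.0% of all genes called. Over all genes it moved the share of calls that were higher from 49.9% to 66.2%. With any 1 array left out, calls became fewer over all genes as well as over the members. Leaving out siTARBP2-2 left 9 members called, and leaving out siControl-1 or siControl-2 left 10; ATP5F1D, ATP5MC2, NDUFC1, COX7A2 and COX6C passed with each array left out, and the other 14 lost their call without at least 1 array.

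Complex I takes electrons from NADH, and its accessory subunits surround a core of catalytic subunits. The members that fell were NDUFC1, NDUFB8, NDUFB6, NDUFA3, NDUFA7 and NDUFS4, and NDUFB2 rose; all are accessory subunits. Of 28 measured accessory subunits 6 fell and 1 rose (median log2 fold change -0.07), beside 17.1% of all genes called lower and 17.0% called higher. None of the 7 measured core subunits (NDUFS1, NDUFS8, NDUFV1 and NDUFV2 among them) passed (median 0.01), beside 34.1% of all genes. At an unadjusted p under 0.05 the core count was also 0, beside 43.9% of all genes. The difference between core and accessory subunits was not tested.

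NDUFC1, a small subunit of the membrane arm, read 10.87 and 10.79 on the knockdown arrays and 11.10 and 11.11 on the controls. Both knockdown arrays were below both controls, a 1.21-fold fall (log2 fold change -0.28, SE 0.06, adjusted p = 0.00202). NDUFB8, also of the membrane arm, read 12.70 and 12.78 against 12.93 and 12.95. The groups were apart and the fold change was -0.20 on the log2 scale (SE 0.05, adjusted p = 0.00772). NDUFA3 read 10.67 and 10.58 against 10.87 and 10.78, again with no overlap (log2 fold change -0.20, adjusted p = 0.0213).
NDUFS4, an accessory subunit of the matrix arm whose loss causes Leigh syndrome in humans, read 12.00 and 11.98 against 12.21 and 12.11 (log2 fold change -0.17, adjusted p = 0.0245). Its groups were apart, but the controls stood farther from each other than the knockdown arrays did. NDUFA7 (-0.22, adjusted p = 0.0355) and NDUFB6 (-0.17, adjusted p = 0.0309) completed the falls, and NDUFB2 had a log2 fold change of 0.15 (adjusted p = 0.0370). NDUFC2, another subunit of the membrane arm, and NDUFV3 had larger positive values with wider intervals (0.29 and 0.31) that did not pass (adjusted p = 0.0662 and 0.0693). NDUFAB1, the mitochondrial acyl carrier protein, had a log2 fold change of -0.13 and did not pass either (adjusted p = 0.0700).

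Complex II, the succinate dehydrogenase of the citrate cycle, has 4 subunits, all measured. The catalytic flavoprotein SDHA read 11.14 and 11.05 against 11.00 and 11.11, and the iron-sulphur subunit SDHB read 12.42 and 12.50 against 12.51 and 12.48. Both sets of arrays overlapped. SDHC, one of the membrane anchors that bind ubiquinone, read 10.41 and 10.19 against 10.63 and 10.59, below both controls with each siRNA and farther below with siTARBP2-2. It fell by 0.31 on the log2 scale (SE 0.07, adjusted p = 0.00518), the largest fall among the 77 members by the brightest probe. With the mean of its probes the value was -0.18, and without siTARBP2-2 it was -0.19 and did not pass. SDHD, the other anchor, read 10.72 and 10.61 against 10.79 and 10.82, also without overlap, and did not pass (log2 fold change -0.14, adjusted p = 0.0979).

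Complex III passes electrons from ubiquinol to cytochrome c. Over its 9 members by symbol, the log2 fold changes of the brightest probes ran from -0.09 to 0.10 with a median of -0.04. The sign of that median was not stable: it was 0.03 with the mean of probes and ran from -0.06 to 0.00 with 1 array left out. Of the 9 members, 0 passed limma's test, also at an unadjusted p under 0.05, which 43.9% of all genes passed. Cytochrome c1 (CYC1), also of this complex, lies outside the symbol rule and is counted below with the electron carriers. It did not pass limma's test either (log2 fold change -0.07, adjusted p = 0.296), though its groups were apart. The core protein UQCRC1 read 10.60 and 10.70 against 10.45 and 10.64, and the core protein UQCRC2 read 10.58 and 10.48 against 10.42 and 10.49. The small subunit UQCRQ read 13.37 and 13.25 against 13.39 and 13.37. The groups overlapped for each of these, and for UQCRFS1, the Rieske iron-sulphur protein (log2 fold change -0.04). UQCR10 was the only one of the 9 members whose groups were apart by its brightest probe, at 9.26 and 9.33 against 9.35 and 9.42. Its other probes were higher after knockdown and passed (0.34 and 0.28, limma adjusted p over probes = 0.00435 and 0.0155). UQCRH and UQCRHL are near-identical copies, so their values (0.02 and 0.03) may share transcripts and are uncertain.

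Complex IV, cytochrome c oxidase, has catalytic subunits of the mitochondrial genome, for which no probe was joined, and a set of nuclear subunits that surround them. Of the 12 measured, 5 fell (COX7A2, COX5B, COX6C, COX8A and COX7C), 0 rose, and 10 had a value below 0, with a median of -0.09. Over all genes, 17.1% were called lower, 17.0% were called higher and 51.5% had a value below 0. COX7A2 read 12.60 and 12.48 on the knockdown arrays and 12.76 and 12.79 on the controls. It fell by 0.23 on the log2 scale (SE 0.05, adjusted p = 0.00444), and its groups were apart.
COX6C read 12.47 and 12.45 against 12.67 and 12.66, with differences within each group far smaller than the fall of 0.20 (SE 0.05, adjusted p = 0.00497). COX5B, a zinc-binding subunit on the matrix side, read 11.52 and 11.37 against 11.67 and 11.68, without overlap and lower with siTARBP2-2 (log2 fold change -0.23, adjusted p = 0.00924). COX8A read 12.89 and 12.88 against 13.05 and 13.06 (log2 fold change -0.17, adjusted p = 0.0115). The arrays of each group lay close together and the groups were apart. COX7C had a log2 fold change of -0.16 (adjusted p = 0.0200). COX4I1 (0.06), COX5A (0.01), COX7B (-0.01), COX6B1 (-0.03), COX7A2L (-0.05), COX6A1 (-0.12) and NDUFA4 (current symbol COXFA4, now counted to complex IV; -0.02) did not pass. The tissue isoforms COX4I2, COX6A2, COX6B2, COX7A1, COX7B2, COX8C and NDUFA4L2 (COXFA4L2) were not measured. COX7B2 came closest to the filter, with a detection p-value of 0.01169 on the siTARBP2-1 array, and the measured members nearest to it, NDUFA5 and NDUFS1, had detection p-values of at most 0.0026. Of the other 4 members without a value, the probes of NDUFB4 and NDUFS6 were detected on no array, and no probe was joined for ATP5F1E and ATP5MGL.

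Complex V was the one complex with calls in both directions besides complex I: 4 members fell (ATP5MC2, ATP5PF, ATP5PO and ATP5F1A) and 2 rose (ATP5F1D and ATP5IF1). In all, 35.3% of its measured members were called, beside 34.1% of all genes. ATP5F1D, the delta subunit of the central stalk, read 10.78 and 10.96 on the knockdown arrays and 10.52 and 10.49 on the controls. Both knockdown arrays were above both controls, higher with siTARBP2-2, and the rise of 1.29-fold (log2 fold change 0.36, SE 0.07, adjusted p = 0.000956) was the largest of the 77 by the brightest probe; with the mean of its probes the log2 fold change was 0.22. ATP5IF1, which binds the ATP synthase and blocks its reverse reaction, read 10.85 and 10.71 against 10.54 and 10.57. It rose by 1.17-fold, without overlap (log2 fold change 0.23, SE 0.06, adjusted p = 0.0126).
ATP5MC2 is one of the genes ATP5MC1, ATP5MC2 and ATP5MC3 that encode the same mature ring subunit with different import sequences. It read 11.93 and 11.88 on the knockdown arrays and 12.15 and 12.24 on the controls, and fell by 1.22-fold (log2 fold change -0.29, SE 0.05, adjusted p = 0.00111). The arrays did not overlap. ATP5MC1 read 11.98 and 11.65 against 11.95 and 11.88, with siTARBP2-1 above and siTARBP2-2 below both controls. ATP5MC3 read 8.14 and 8.17 against 8.05 and 8.14, which overlap.
In the peripheral stalk, which holds the catalytic head in place, ATP5PF fell (11.96 and 11.90 against 12.09 and 12.14; log2 fold change -0.19, adjusted p = 0.0121), as did ATP5PO, the oligomycin sensitivity protein (-0.15, adjusted p = 0.0373), while ATP5PB (0.02) and ATP5PD (0.01) did not pass. In the catalytic head, ATP5F1A fell by 0.13 (adjusted p = 0.0461), a call that held under 4 of 14 alternatives, and its second probe gave 0.00; ATP5F1B of the head (0.04) and ATP5F1C of the central stalk (0.08) were not past the threshold. None of the 5 other measured membrane subunits passed: ATP5ME, ATP5MF, ATP5MG, ATP5MJ and ATP5MK, with log2 fold changes from -0.14 to 0.04. The plot of the 19 members by array shows each of these values against the controls.

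**Figure D2:**
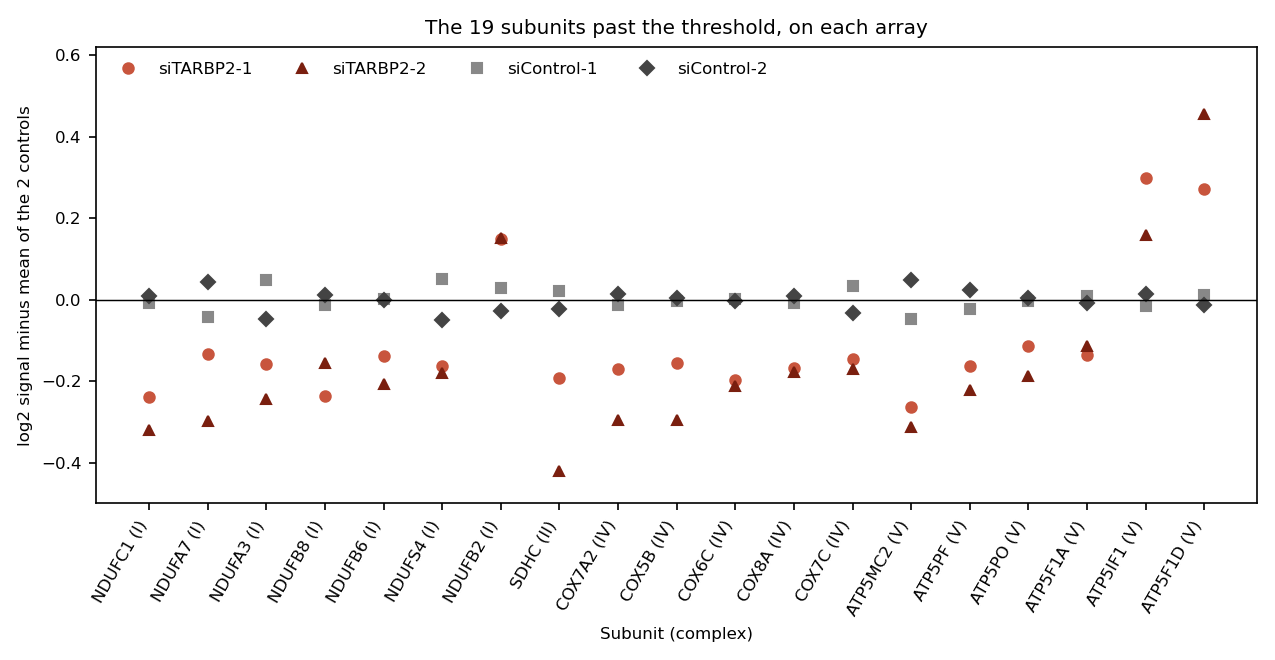
Log2 signal of the 19 subunits that passed the test on each of the 4 arrays, minus the mean of the 2 control arrays, with the complex in brackets. The knockdown arrays lie on one side of both controls for each of the 19, and the siRNAs stand farthest apart for SDHC (-0.19 and -0.42).

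The 58 members that did not pass had 95% intervals that lay inside 1.5-fold in both directions, from -0.46 to 0.58 on the log2 scale. These intervals are for the brightest probe and rest on the spread that limma shares across genes. Among these members, other probes of UQCR10, ATP5MG and NDUFB3 passed. The median distance from an estimate to the end of its interval was 0.12 over the members. The highest signal of a member was 24033, below the highest signal of each array (28450 to 29795).

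Set against both controls on its own, siTARBP2-1 gave 7 members lower and 2 higher, beside 24.7% of all genes called, and siTARBP2-2 gave 16 lower and 1 higher, beside 27.2%. Both comparisons use the same controls, and each takes its spread from them. How many of all genes were called with both siRNAs was not counted, so the names that follow are a list only. Lower with each were NDUFC1, NDUFB8, COX7A2, COX6C, COX8A and ATP5MC2, and higher with each was ATP5F1D (0.27 and 0.46, adjusted p = 0.0113 and 0.000550). By complex, the median difference from the controls was -0.04 and -0.06 for complex I, -0.08 and -0.10 for complex II, -0.02 and 0.00 for complex III, -0.09 and -0.11 for complex IV and 0.04 and -0.03 for complex V.
The siRNAs themselves differed at an adjusted p under 0.05 for 0 genes by limma. At an unadjusted p under 0.05 they differed for 4 members, beside 5.79% of all genes. The smallest p belonged to ATP5MC1, with log2 fold changes of 0.06 and -0.27 (difference 0.33, SE 0.07, adjusted p = 0.530). SDHC (-0.19 and -0.42) and NDUFB3 (0.04 and -0.13, from 12.41 and 12.24 against 12.39 and 12.35) came next, and the difference of neither passed (adjusted p = 0.840).

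For 19 members more than 1 probe was detected, and the brightest stands for the gene above. In a fit over all 19295 detected probes, where 28.0% were called, 15 of 99 member probes were lower and 7 higher. Of the 19 members, 8 had all probes on the same side of 0, and no member had probes called in both directions. ATP5IF1 was the only one with all of its probes called (0.23 and 0.24).
The probes of UQCR10 lay on both sides of 0. The brightest, joined to transcript NM_001003684, had a log2 fold change of -0.09. The other probes, joined to NM_013387, read 8.88 and 8.93, and 8.79 and 8.75, on the knockdown arrays and 8.61 and 8.52, and 8.55 and 8.44, on the controls. All of these knockdown values lay above the control values, with log2 fold changes of 0.34 and 0.28 (limma adjusted p over probes = 0.00435 and 0.0155). In the authors' deposited table NM_013387 is the only member accession, of 95, marked as up-regulated (deposited log fold change 0.238), where 3.12% of all accessions are marked and the members range from -0.293 to 0.238.
SDHC fell with the probe joined to NM_003001 and had a log2 fold change of -0.06 with the probe joined to NM_001035513 (adjusted p = 0.539). The other probe of ATP5F1D gave 0.08 (adjusted p = 0.475) beside 0.36. ATP5MG gave -0.03 with its brightest probe and 0.22 with the other, which passed (adjusted p = 0.0261), and NDUFB3 gave -0.04 and -0.16, the second of which passed (adjusted p = 0.0428). ATP5PF gave -0.19, -0.14 and 0.01 with its 3 probes. The RefSeq gene table holds 186 pseudogenes whose symbols begin like the members' symbols, and how far their transcripts add to these signals was not tested.

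**Figure D3:**
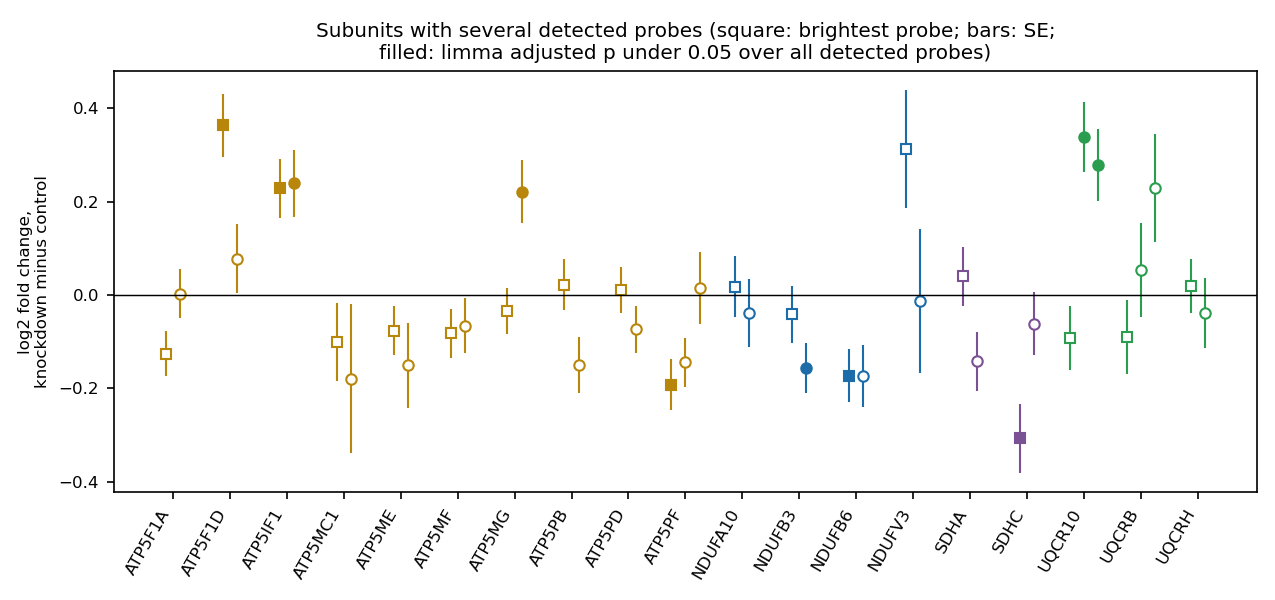
Log2 fold change of each detected probe of the 19 subunits that have several, with SE bars; squares are the brightest probes and filled points passed limma's test over all detected probes. The probes of ATP5IF1 lie together (0.23 and 0.24), while those of UQCR10 lie on both sides of 0 (-0.09, 0.34 and 0.28).

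Other genes of the pathway were counted from lists by role, beside 17.1% of all genes called lower and 17.0% called higher. Of the assembly factors of the complexes, 43 of 51 were measured, and 8 fell and 4 rose. COX15, which makes the haem of complex IV, read 8.19 and 8.21 against 8.61 and 8.61 and fell by 0.41 on the log2 scale (adjusted p = 0.000785). COX17, the copper chaperone of complex IV, fell by 0.24 (adjusted p = 0.00441), and COA3, an early complex IV assembly factor, rose by 0.28 (adjusted p = 0.00148). Of 18 cytochromes, electron carriers and ubiquinone genes, 5 fell and 1 rose. COQ10B, a ubiquinone-binding protein, read 10.83 and 10.81 against 11.52 and 11.54 (log2 fold change -0.71, adjusted p = 6.42e-07), and the ubiquinone synthesis genes COQ2 (-0.27) and COQ5 (-0.23) fell too.
Of the regulators of mitochondrial transcription and biogenesis, 15 of 17 were measured, and 5 fell and 4 rose. TFAM, which packages and transcribes mitochondrial DNA, read 11.39 and 11.37 against 11.88 and 11.98, clear of the controls with both siRNAs (log2 fold change -0.55, SE 0.06, adjusted p = 6.63e-06). The RNA-binding protein LRPPRC (0.29) and the mitochondrial helicase TWNK (0.24) rose. Of 13 citrate cycle genes 1 fell and 3 rose. DLD, the dihydrolipoamide dehydrogenase shared by several complexes, fell by 0.37, and among the rises were the succinyl-CoA ligase subunit SUCLG2 (0.28) and IDH3G, a subunit of isocitrate dehydrogenase (0.20). Over these lists the median log2 fold change was -0.05 for assembly factors, -0.10 for electron carriers, -0.07 for regulators and 0.08 for the citrate cycle. No difference between lists was tested.

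**Figure D4:**
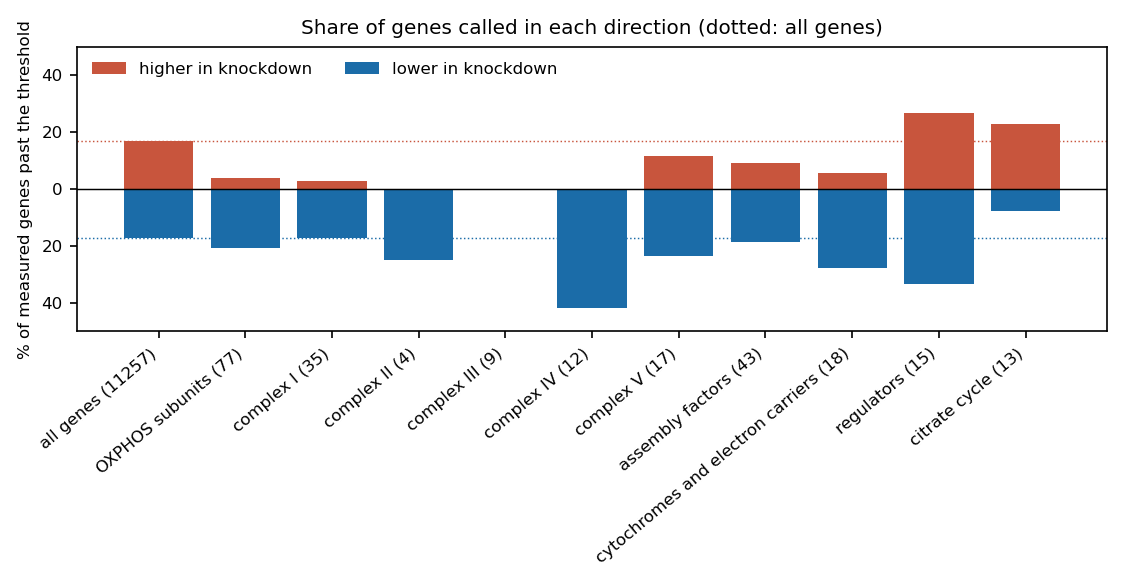
Percent of the measured genes of each list that passed limma's test, higher upwards and lower downwards, with the number measured in brackets and all genes as dotted lines (17.0% higher and 17.1% lower). Complex III has no bar, complexes II and IV have bars downwards only, and the citrate cycle has more genes higher than lower.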

How the data were processed

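The authors deposited the non-normalized signal intensity of 47323 probes on 4 Illumina BeadChips, with a detection p-value beside each intensity, per the file headers, a series matrix of intensities, and a table with 1 log fold change per accession, taken as log2 although its base is not stated, and a mark for up-regulated accessions, per the file headers. Per the submitters' processing notes lumi was used, at a version not given in these sources. Probes carry no gene names in these files. They were joined to accessions by value: each deposited fold change was matched, within 1e-09, to the groups' mean difference after an inverse hyperbolic sine transform, with fitted constants, of intensities in the series matrix, whose groups stand crosswise to the labels (33131 probes matched that way and 13 as labelled). In all 39281 of 39747 accessions were joined, and 27675 probes got a current symbol from RefSeq, for 19145 symbols.

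Intensities were background-corrected (normexp, with negative controls estimated through detection p-values), quantile-normalised and put on a log2 scale with an offset of 16 by neqc in limma 3.58.1 (R 4.3.3). Probes with detection p under 0.01 on 2 or more arrays were kept, the brightest probe stood for a gene, and lmFit and eBayes with a trend tested the groups, at 0.05 after Benjamini-Hochberg adjustment over the whole table. Each siRNA was tested in a fit of 3 groups. The script was tested on simulated data. Array precision is limited by the number of arrays; 39.1% to 40.8% of probes were detected per array. Values on each array are given for the 4 members of each complex with the smallest p, the 3 with the smallest p between siRNAs, and the isoforms ATP5MC1, ATP5MC2 and ATP5MC3. Other measured isoforms are given by log2 fold change, with array values only where they were among those 4. In the other lists the genes with the 3 smallest p are named where reported. IDH3G and CYC1 were added after their values were seen, as were the members whose probes differ. Values of some genes are not reported here. Alternatives were other normalisations, filters, probe rules, variance models, a replicate block and leaving out each array. The members and lists were chosen with earlier results of these data known, so their directions are no independent support.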

Additional observations from a re-analysis of the deposited data

How the results depend on the processing

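The falls and rises kept their direction under every alternative except the series matrix read as labelled, which turns every sign because its groups stand crosswise; with its groups crossed it gave 19 members called, 3 higher and 16 lower. ATP5F1D, ATP5MC2 and NDUFC1 were called under all 14 alternatives other than that reading, and COX7A2 and COX6C under 13. The count of 19 became 12 with median scaling, 12 without the detection filter and 4 without the variance trend, and 9 to 17 when 1 array was left out (9 without siTARBP2-2, 10 without either control array, 17 without siTARBP2-1). The lower count of 16 became 7, 10 and 2 under the first 3 of these, 3 with the series matrix as labelled and 7 to 16 without 1 array; the higher count of 3 became 5 with median scaling, 16 with the series matrix as labelled and 1 to 2 without 1 array. For complex I the count of 7 became 4 without the filter, 2 without the trend and 2 to 5 without 1 array; for complex II the count of 1 became 0 without the trend and 0 to 2 without 1 array; for complex IV the count of 5 became 3 with median scaling, 3 without the filter, 0 without the trend and 3 to 5 without 1 array; for complex V the count of 6 became 3 with median scaling, 2 without the trend and 3 to 5 without 1 array. With siTARBP2-1 alone the 9 calls became 2 with median scaling, 5 without the filter and 0 without the trend, and with siTARBP2-2 alone the 17 became 4, 10 and 0. The 31 calls in the other mitochondrial lists became 20 with median scaling, 16 without the trend and 16 to 25 without 1 array. An added fit over all detected probes, chosen after seeing the data, called 17 of the members by their brightest probe, and 20 members by any probe. The fit with the replicate block called 18 members, 3 higher and 15 lower, and 3864 genes, and it ended the call of ATP5F1A (adjusted p = 0.0634). Deviations of same-numbered arrays did not go together (correlation across genes 0.0053). The knockdown arrays also differ by siRNA, so this value cannot show whether same-numbered arrays were handled together. Calls over all genes changed too, from 34.1% to 30.0% with median scaling, 15.5% without the filter and 24.5% without the trend. The cause of these changes was not tested.

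Read as labelled, the series matrix gave log2 fold changes of 2.57 for TARBP2, -0.35 for ATP5F1D, 0.29 for ATP5MC2, 0.28 for NDUFC1, 0.24 for COX7A2, 0.22 for COX6C, 0.30 for SDHC, 0.21 for NDUFB8, 0.23 for COX5B, 0.19 for COX8A, 0.19 for ATP5PF, -0.21 for ATP5IF1, 0.18 for COX7C, 0.19 for NDUFA3, 0.17 for NDUFS4, 0.17 for NDUFB6, 0.21 for NDUFA7, -0.15 for NDUFB2, 0.15 for ATP5PO, 0.15 for ATP5F1A, 0.36 for COX15, -0.29 for COA3, 0.25 for COX17, 0.37 for DLD, -0.26 for SUCLG2, 0.74 for COQ10B, 0.28 for COQ2, 0.23 for COQ5, 0.57 for TFAM, -0.27 for LRPPRC and -0.23 for TWNK.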
